A study of Mus musculus with 2 samples.

Results

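Stretches of the genome where both STAT3 and STAT5 gave very many reads were examined in mouse T helper 17 (Th17) cells, a class of CD4 T cells named for the cytokine IL-17. Chromosomes 1 to 19 of build mm9 were cut into regions of 400 bp, and the 911 regions described here were chosen by their read counts, 250 or more in the STAT3 library and 250 or more in the STAT5 library. They stood among 4964342 regions with a read of either library. Before 1 of each set of adjacent regions was kept, 973 had met the rule. A further 688 regions had 250 or more STAT3 reads but fewer STAT5 reads, and 3751 had 250 or more STAT5 reads but fewer STAT3 reads. These are called tall with STAT3 alone and tall with STAT5 alone, which names a count rule and does not mean that the other antibody was missing.

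The study mapped binding of both factors by chromatin immunoprecipitation sequencing in 2 libraries, 1 per antibody. Wild type C57BL/6J naive CD4 T cells, taken from lymph nodes and spleen, had been grown under Th17 conditions for 3 days, with TGF-beta (2 ng/ml), IL-6 (20 ng/ml) and antibodies against CD3 and CD28. The labels also list anti-IL-4 and anti-IL-2, the second with a dose in international units, the unit in which the cytokine itself is measured. Cells for the STAT3 library then received IL-6 at 40 ng/ml for 30 minutes, and cells for the STAT5 library IL-2 at 200 IU/ml for 30 minutes, so antibody and cytokine cannot be told apart. The STAT5 precipitation combined a STAT5A antibody and a STAT5B antibody. No input or IgG library was analysed here, and there was 1 library of each kind, so no difference below has a replicate check and all intervals cover counting error or the spread over regions only.

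STAT3 and STAT5 are latent transcription factors that are phosphorylated by Janus kinases at cytokine receptors, pair up and enter the nucleus. STAT3 is the main STAT activated by IL-6 and drives Th17 differentiation, and STAT5A and STAT5B are activated by IL-2, which restrains it. Their DNA-binding domains recognise closely related palindromic elements, the gamma-activated sequences, and at some genes the proteins are known to occupy the same elements. A gene name, a position relative to genes and the DNA sequence of these regions need a genome and annotation of mm9, which were not used here, so regions are given by position counted from 1.

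Depth was 20788823 reads for STAT3, with 20172191 on chromosomes 1 to 19, and 17968199 for STAT5, with 17481583 there. No position and strand occurs more than once in either deposited file, so a region of 400 bp can hold at most 800 reads. Reads with a mismatch made up 1.85% of autosomal STAT3 reads and 1.84% of STAT5 reads. In 903 of the 911 regions this share was at most 4.65% with STAT3 and 5.81% with STAT5.

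In the other 8 regions it was 12.1 to 31.7% with STAT3 and 13.2 to 35.8% with STAT5. These 8 were singled out after the values were seen. Of them 5 lay within 5600 bp on chromosome 17, from 39980000 to 39985599, with 521 to 644 STAT3 and 350 to 467 STAT5 reads each. Another, from 35112800 to 35113199 on chromosome 9, had 268 reads in each library. In that region 264 of the 800 combinations of position and strand were taken in both libraries and 528 in neither. The remaining regions lay on chromosome 1 from 90174000 to 90174399, with counts of 292 (STAT3) and 253 (STAT5), and on chromosome 11 from 3059600 to 3059999, with 278 and 300.

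The strands also lay differently in most of these 8 regions. At a bound site, reads of the plus strand pile up on one side of the protein and reads of the minus strand on the other. How far apart they lie depends on the length of the fragments. The labels give a library fragment size of 250 bp for both libraries, above the median distances below, and the reason was not tested. The distance between the median 5′ ends of the strands, within 300 bp of the region's centre, is called the strand distance here. Its median was 19.8 bp with STAT3 in the 8 regions and 98 bp in the other 903, and with STAT5 25.3 and 97.5 bp. In the region on chromosome 9 the strands matched best at a shift of 24 bp in either library (r = 0.997 and 1.00), which is 1 less than the read length of 25 nt. What sets these 8 regions apart was not tested. They stay in the values below, and the main values without them are given in the closing section.

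**Figure D1:**
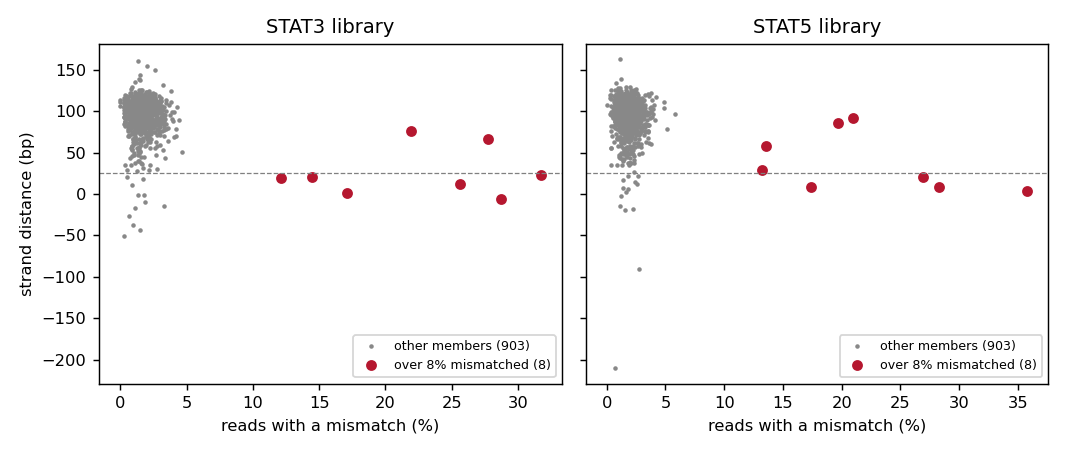
Strand distance (y axis, bp) against the share of reads with a mismatch (x axis, %) in the STAT3 library (left) and the STAT5 library (right), 1 point per region. The 8 regions over 8% (red) stand apart from the other 903 (grey), and 6 of the 8 lie at or below 25 bp (dashed line) in at least 1 library.

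The counts that chose the regions are given as a description only. With STAT3 the regions had a median of 333 reads (lowest 250, quartiles 285 and 406, highest 717), which is 82.0 times the mean of 4.06 reads per autosomal region. With STAT5 the median was 415 reads (lowest 250, quartiles 333 and 516, highest 787), 118 times the mean of 3.52. Together they held 1.61% of the autosomal STAT3 reads and 2.25% of the STAT5 reads. Of the 911 regions 522 (57.3%) had at least 300 reads of each antibody, 180 (19.8%) at least 400, 45 (4.94%) at least 500 and 7 (0.768%) at least 600. One region reached 700 with each. Across the 911 regions the counts of the libraries went together only weakly (Pearson's r = 0.329, Spearman's rho = 0.299), and the choice at 250 bounds this value.

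**Figure D2:**
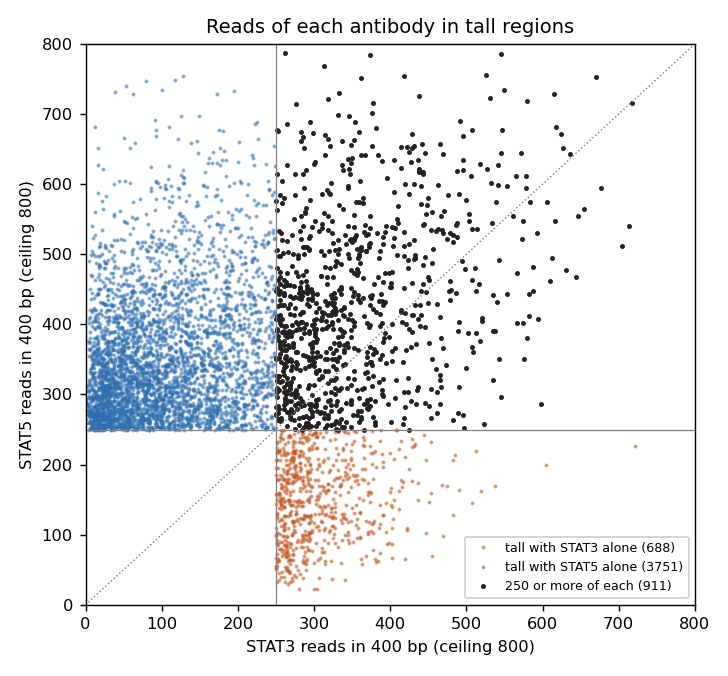
STAT3 reads (x axis) and STAT5 reads (y axis) in 400 bp for the 911 regions with 250 or more of each (black), the 688 tall with STAT3 alone (orange) and the 3751 tall with STAT5 alone (blue). Grey lines mark 250 reads and the dotted line equal counts, and 656 of the 911 regions lie above it.

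The region with the largest sum lay on chromosome 18 from 65482000 to 65482399, where STAT3 gave 717 reads and STAT5 716. Of the 800 combinations of position and strand there, 648 were taken in both libraries and 15 in neither. Second was chromosome 10 from 7544400 to 7544799 (670 with STAT3, 753 with STAT5), where only 8 combinations were free of reads in both. Next by sum came chromosome 3 from 37180000 to 37180399, at 615 with STAT3 and 729 with STAT5, and chromosome 12 from 108385200 to 108385599, with 545 and 786. In the latter 5 combinations were empty in both libraries.

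The other 6 of the 10 largest had 526 to 636 STAT3 and 643 to 756 STAT5 reads. They lay on chromosome 11 from 117830400 (618 STAT3 and 682 STAT5 reads), chromosome 4 from 32378400 (580 and 719) and chromosome 17 from 52302000 (624 and 671). The last of them lay on chromosome 1 from 38834400 (549 and 734), chromosome 5 from 53882000 (526 and 756) and chromosome 3 from 138540000 (636 and 643). Reads were also scaled by the nuclear reads of each library, written as RPM. On that scale STAT5 was the higher of the pair in all 10, by 1.16 to 1.67 times. The lowest ratio of the 10, 1.16, was that on chromosome 18, where the raw counts differed by 1 read and the STAT3 library is the deeper one.

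At the lower edge, 101 of the chosen regions were less than 10 reads above the limit in the lower of the libraries. Another 126 regions missed by 10 reads or fewer, a count in which adjacent regions were all kept. Just inside were chromosome 7 from 97208400 to 97208799 (250 STAT3 and 271 STAT5 reads), chromosome 12 from 56567200 to 56567599 (250 and 272) and chromosome 8 from 35818400 to 35818799 (250 and 282). Just outside were chromosome 15 from 9500000 to 9500399 (249 STAT3 and 626 STAT5 reads), chromosome 5 from 152179600 to 152179999 (249 and 523) and chromosome 11 from 4189200 to 4189599 (249 and 504). In the lower library these regions differed by 1 read. Ties were taken from the smallest sum up inside the limit and from the largest sum down outside it. The STAT5 counts shown follow from that order and do not compare the sides. The position of the grid also decides membership. With the grid moved by 200 bp there were 921 regions, and 614 of the 911 overlapped one of them.

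The balance between the antibodies was set in part by the rule. The ratio of RPM, STAT5 over STAT3, had a median of 1.40 (lowest 0.555, quartiles 1.12 and 1.70, highest 3.48), and STAT5 was the higher of the pair in 777 of 911 regions (85.3%). A region was called higher with one antibody when the exact 95% interval of the ratio lay wholly beyond 2-fold. By that rule 42 of the 911 (4.61%) were higher with STAT5 and 0 with STAT3. Over all 5350 regions tall with either antibody the shares were 58% and 3.55%, and since the rule asks for 250 reads of each, nothing is read from that contrast.

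The highest ratio was found on chromosome 9 from 107198800 to 107199199, where STAT3 gave 262 reads and STAT5 787, an RPM 3.48 times as high with STAT5 (interval 3.02 to 4.01). Of its 400 positions on one strand, a run of 379 in a row was taken by STAT5, against a longest run of 8 by STAT3. The next were chromosome 6 from 99382800 to 99383199 (251 STAT3 and 677 STAT5 reads, 3.12 times) and chromosome 8 from 26711600 to 26711999 (253 and 676, 3.09 times). Chromosome 15 from 62102800 to 62103199 (276 and 714, 2.99 times) and chromosome 2 from 6515200 to 6515599 (265 and 686, 3.00 times) followed. All 5 had STAT3 counts near the lower limit and STAT5 counts of 676 to 787.

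STAT3 was the higher of the pair by the widest margin on chromosome 14 from 54852800 to 54853199, where STAT3 gave 598 reads and STAT5 287, an RPM 1.80 times as high (interval 1.56 to 2.08). Of 2 such regions on chromosome 11, the one from 100800800 to 100801199 had counts of 523 and 258 (1.75 times, 1.51 to 2.04), and the one from 117739600 to 117739999 counts of 497 and 252 (1.70 times, 1.46 to 1.99). Chromosome 8 from 87509600 to 87509999 had 546 and 297 reads, and chromosome 9 from 7872800 to 7873199 had 495 and 271. None of the 5 intervals lay wholly beyond 2-fold.

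The ceiling of 800 reads weighed more on STAT5. More than 400 of the 800 combinations were taken by STAT5 in 501 regions (55.0%) and by STAT3 in 241 (26.5%), and more than 600 by STAT5 in 103 (11.3%) and by STAT3 in 18 (1.98%). The longest run of neighbouring positions taken on 1 strand had a median of 42 positions with STAT5 (quartiles 17 and 103) and 22 with STAT3 (13 and 42.5). When counts were corrected for positions already taken, 166 regions in place of 42 were called higher with STAT5 and 2 in place of 0 with STAT3. The calls also depended on the scaling. Libraries were also scaled by the reads in 10 kb bins where no 400 bp region held 50 or more reads of either antibody. This raises the ratio by 1.31 times, and 190 were then higher with STAT5 and 0 with STAT3. With STAT3 reads thinned to the STAT5 depth, 668 regions met the rule and 15 were higher with STAT5.

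Plus and minus reads lay about 100 bp apart in most regions. The strand distance had a median of 98 bp with STAT3 (quartiles 86 and 107) and 97 bp with STAT5 (quartiles 84 and 106.75). It lay between 60 and 140 bp in 846 regions (92.9%) with STAT3 and in 832 (91.3%) with STAT5. The shift at which the strands correlated best, a measure added after the values were seen, had medians of 105 and 109 bp and lay between 60 and 140 bp in both libraries in 796 regions. The strands were balanced, with 39.0 to 63.0% of STAT3 reads and 40.4 to 59.1% of STAT5 reads on the plus strand.

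The strand distance was 25 bp or less in at least 1 library in 29 regions and in both libraries in 7. Of the 29, 6 belong to the 8 regions rich in mismatches. Of the other 23, 18 had their best strand correlation at 60 to 140 bp in both libraries. An example is chromosome 17 from 52302000 to 52302399, where the strand distance was -16.5 bp with STAT3 and 6.5 bp with STAT5, while the best shifts were 113 and 99 bp. Windows 600 bp to its sides held 198.5 STAT3 and 240.5 STAT5 reads on average.

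The median STAT5 strand distance was 97 bp in the 911 regions (95% interval 96 to 98.5), 105 bp in the 3751 regions tall with STAT5 alone (105 to 106) and 94.5 bp in the 688 tall with STAT3 alone (92 to 96.5). It was thus below that of the first of these sets and not below that of the other. In bands of STAT5 count it was, against STAT5 alone, 96.25 against 106.5 bp from 250 to under 300 reads and 99.5 against 106 bp up to under 400. From 400 to under 500 reads it was 101.25 against 104.5 bp, and from 500 to under 600 it was 95.5 against 100 bp. At 600 or more it was 85 against 95.75 bp. For STAT3 the median was 98 bp both here and in the 688 regions tall with STAT3 alone. With 1 library per antibody and regions that are not replicates of a condition, these differences have no test.

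**Figure D3:**
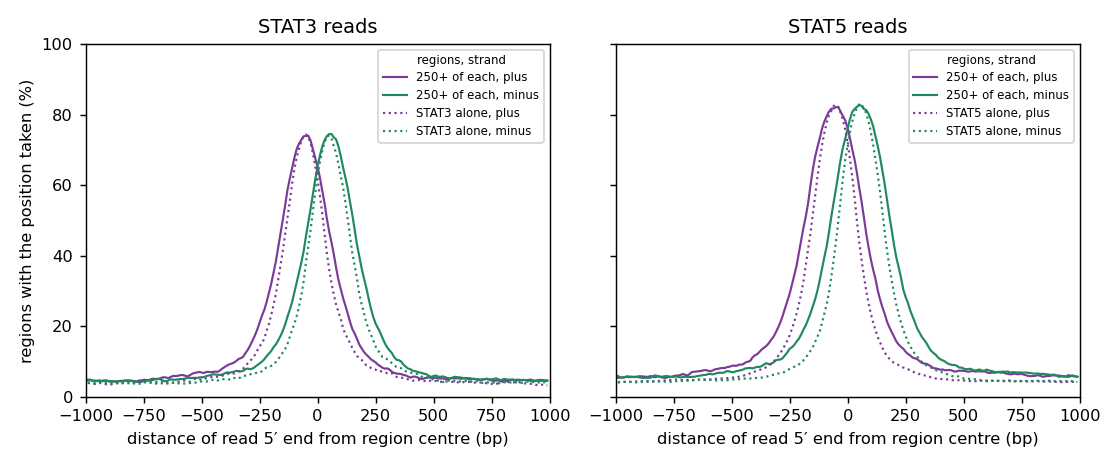
Share of regions with a read 5′ end (y axis, %, 21 bp running mean) by distance from the region's centre (x axis, bp), for STAT3 (left) and STAT5 (right), by strand. Solid lines are the 911 regions and dotted lines the regions tall with that antibody alone. The plus and minus curves of the 911 regions peak at 74.0 and 74.5% with STAT3 and at 82.1 and 82.7% with STAT5, 100 bp apart. At 500 bp upstream the STAT5 plus curves stand at 8.74% (solid) and 5.47% (dotted). Dotted sets leave out regions adjacent to one that met the rule for both, which in part fixes that contrast.

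Width was measured as the unbroken span around the summit where the density of fragment centres was at least 50% of its maximum. The median width was 208 bp with STAT3 (quartiles 167 and 260) and 256 bp with STAT5 (quartiles 207 and 326.5), and STAT5 was the wider of the pair in 675 of 911 regions (74.1%). Counts differed as well, so the 186 regions whose counts differed by at most 10% of their mean were taken apart. In these the medians were 211 bp with STAT3 (95% interval 198 to 227) and 234.5 bp with STAT5 (220 to 248), and STAT5 was wider in 117 and STAT3 in 65. Widths of the libraries went together moderately across the 911 regions (Pearson's r = 0.468, Spearman's rho = 0.454), which share centre and sequence.

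Width was larger in taller regions (rho of width with count 0.572 for STAT3 and 0.647 for STAT5), and the part of the ceiling on reads in this was not tested. The median STAT5 width was 205.5 bp below 300 STAT5 reads and 430 bp at 600 or more. In the regions tall with STAT5 alone these were 167 and 409.5 bp. In the bands from 250, from 300 and from 400 to under 500 reads, the 911 regions had medians of 205.5, 214 and 250.5 bp against 167, 193 and 234 bp for STAT5 alone. From 500 to under 600 reads the order was the other way round, by a few bp. For STAT3 the medians in the first 3 bands were 175, 195 and 247 bp against 161, 187 and 211.5 bp for STAT3 alone.

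**Figure D4:**
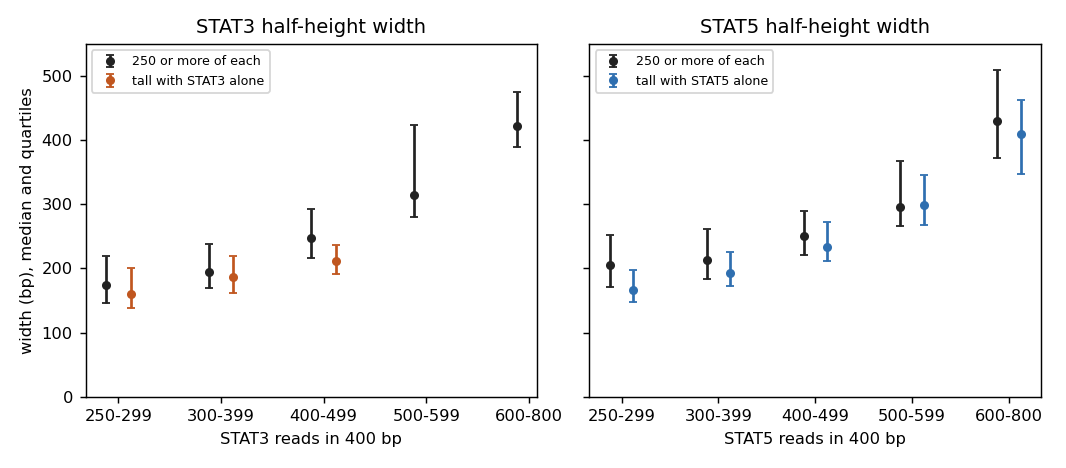
Width at 50% of the maximum (y axis, bp, median with quartiles) by reads of the same antibody in 400 bp (x axis), for STAT3 (left) and STAT5 (right). Black points are the 911 regions and coloured points those tall with that antibody alone. Width grows with the count in every set, and black medians lie above coloured ones in each band shown except the fourth STAT5 band.

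By STAT5 width, the widest region was one of those rich in mismatches on chromosome 17, from 39981200 to 39981599, at 1096 bp with STAT5 and 1106 bp with STAT3. Next came chromosome 7 from 82717200 to 82717599, at 741 bp with STAT5 but 135 bp with STAT3 (697 and 346 reads), and chromosome 4 from 32337600 to 32337999, at 693 and 643 bp (598 and 554 reads). The narrowest with STAT5 were chromosome 5 from 32494400 to 32494799 at 95 bp (323 STAT5 reads), chromosome 2 from 173295200 to 173295599 at 105 bp (275) and chromosome 11 from 100800800 to 100801199 at 121 bp (258).

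The libraries were centred close to each other, but not always on the same bases. The median fragment positions of STAT3 and STAT5 differed by a median of 17.5 bp (quartiles 7.5 and 33), by 10 bp or less in 33.0% of regions and by more than 50 bp in 123 (13.5%). Offsets were also taken for plus and minus reads separately, which come from the same 2 libraries. Both strands were offset by more than 10 bp in the same direction in 457 regions (50.2%), and in opposite directions in 22 (2.41%). The offsets of the strands went together across regions (Pearson's r = 0.829, Spearman's rho = 0.827). A window of 300 bp around 1 common centre bounds them. The same-way share was 51.5% in regions tall with STAT3 alone and 54.5% in those tall with STAT5 alone, so it was not higher here. Opposite directions were found in 6.10% and 9.38% of these sets. Their median offsets were 19.5 and 25.5 bp, and 17.7% and 27.4% were offset by more than 50 bp. By the rule 1 library has fewer reads in these sets, and the part of this in the offsets was not tested.

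The largest offset was found on chromosome 15 from 100976000 to 100976399, where 293 STAT3 and 508 STAT5 reads were centred 200 bp apart, with offsets of 216 bp on the plus and 169 bp on the minus strand. Next were chromosome 7 from 71286400 to 71286799 (289 and 566 reads), with centres 180 bp apart, and chromosome 8 from 117758000 to 117758399 (373 and 368 reads), with centres 164.5 bp apart. In all 3 the strands moved the same way. In the tallest region, on chromosome 18, the centres were 2 bp apart.

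Reads stayed above the autosomal mean for several kb around the regions. In windows of 400 bp centred 600 bp to either side, the median region had 28.5 STAT3 reads (quartiles 17 and 51.75) and 33.5 STAT5 reads (18 and 68.25), 7.01 and 9.51 times the autosomal mean. At 2 kb the medians were 13 reads with either antibody, at 5 kb 8.5 STAT3 and 6.5 STAT5 reads (2.09 and 1.85 times), and at 50 kb 4.5 and 3.5 reads (1.11 and 0.994 times). Means lay above medians, at 22.8 STAT5 reads against a median of 6.5 at 5 kb. The fullest window pair at 5 kb averaged 494.5 STAT5 reads. At 50 kb the means were still 2.58 (STAT3) and 3.56 (STAT5) times the autosomal mean, though the medians lay near it.

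Flanks were also compared with the regions tall with 1 antibody alone. At 5 kb these had medians of 7 STAT3 reads beside STAT3-alone regions and 5 STAT5 reads beside STAT5-alone regions, against 8.5 and 6.5 here. At 600 bp the medians were 26.5 STAT3 and 21.5 STAT5 reads, against 28.5 and 33.5. The order held for STAT5 within count bands: from 300 to under 400 STAT5 reads, the 911 regions had a median of 29 flank reads and those tall with STAT5 alone 20.5. For STAT3 it held in 1 of the 3 bands that could be compared, with 24.5 against 23.5 reads below 300 STAT3 reads. It was reversed in the others, with 26 against 28.5 reads from 300 and 32 against 37.5 reads from 400 to under 500. Regions tall with 1 antibody alone were left out where adjacent to a region that met the rule for both. The windows at 600 bp reach into adjacent regions, so the choice in part fixes the contrast at 600 bp.

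**Figure D5:**
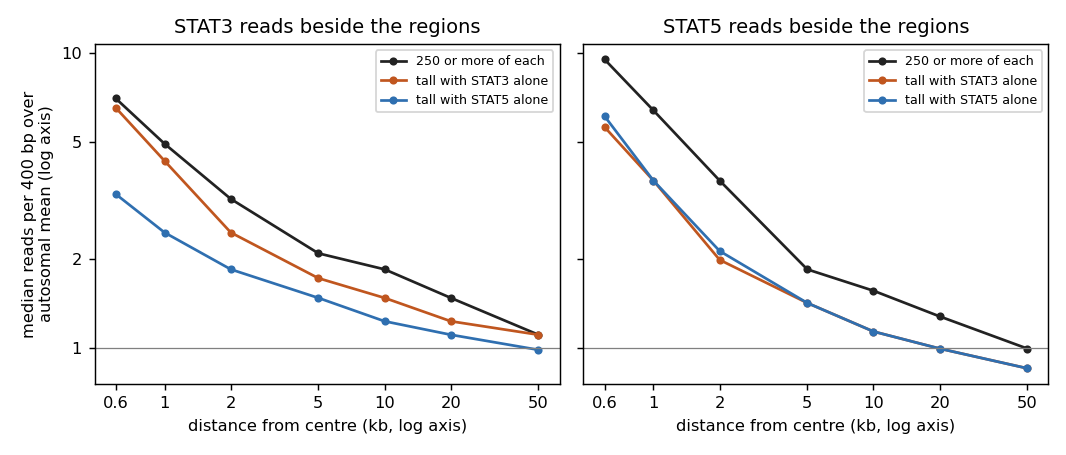
Median reads in 400 bp windows over the autosomal mean (y axis, log scale) by distance from the centre (x axis, kb, log scale), for STAT3 reads (left) and STAT5 reads (right). The 911 regions (black) start at 7.01 and 9.51 times the mean at 0.6 kb and come down to 1.11 and 0.994 times at 50 kb. The regions tall with 1 antibody alone (orange, blue) lie at or below them at each distance. At 0.6 kb the choice of those sets in part fixes the order, since they leave out regions adjacent to one that met the rule for both.

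A second region with 100 or more reads of each antibody, not adjacent, lay within 2 kb of 283 of the 911 regions (31.1%, exact 95% interval 28.1 to 34.2%) and within 10 kb of 553 (60.7%, 57.4 to 63.9%). The share within 10 kb was 44.2% (40.4 to 48.0%) for regions tall with STAT3 alone and 40.4% (38.8 to 42.0%) for those tall with STAT5 alone. Of all regions with a read, 0.168% held 100 or more reads of each antibody. This limit is a looser form of the rule that chose the 911 regions, and these count as neighbours too, so nothing is read from the contrast.

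The 911 regions themselves came singly and in groups. The distance to the nearest other one had a median of 112800 bp, with quartiles of 14000 and 906200 bp, and 364 regions (40.0%, exact 95% interval 36.8 to 43.2%) had another within 50 kb. Linked by gaps of up to 50 kb, they formed 547 single regions, 91 pairs, 34 groups of 3, 13 of 4, 2 of 5 and 3 of 6. The share with a neighbour of the same kind within 50 kb was 23.8% for the 688 regions tall with STAT3 alone and 54.0% for the 3751 tall with STAT5 alone, sets whose sizes differ and with them the spacing.

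The closest neighbours lay 800 bp apart, the least the rule allows after 1 of adjacent regions is kept. On chromosome 1 the regions from 166065200, 166066000 and 166066800 followed each other at that distance, the middle one being the tallest with either antibody (496 reads with STAT3, 620 with STAT5). On chromosome 5 the regions from 53793200 and 53794000 had 269 and 377 STAT3 and 308 and 716 STAT5 reads. In all 37 pairs of neighbours lay within 2 kb of each other and 70 within 5 kb.

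The largest groups had 6 regions each. On chromosome 3, 6 regions spread over the 104400 bp from 37108400 to 37212799. In order along the chromosome they had 593, 714, 348, 615, 440 and 352 STAT3 reads and 530, 541, 477, 729, 413 and 663 STAT5 reads. The ratio of RPM, STAT5 over STAT3, was 1.03, 0.877, 1.59, 1.37, 1.09 and 2.18 in the same order, and STAT3 was the higher only in the second of these 6. The second (interval 0.783 to 0.982) and the last (1.91 to 2.49) were the lowest and highest of the 6. Their intervals cover counting error only, and the counts also chose the regions, so nothing is read from that contrast. The other groups of 6 lay on chromosome 6 from 48623200 to 48697999 (270 to 367 STAT3 and 318 to 642 STAT5 reads) and on chromosome 13 from 30884400 to 30955999 (286 to 495 and 268 to 643).

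Grouped and single regions are set side by side as a description, since the counts chose the regions and regions are not replicates. The 364 grouped regions had medians of 351 STAT3 and 442 STAT5 reads, the 547 single ones 324 and 402. At 5 kb the medians were 12 STAT3 and 12.25 STAT5 reads against 7 and 5, which the grouping in part fixes. The median ratio of RPM was 1.36 in grouped and 1.42 in single regions.

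All 19 autosomes held such regions, from 23 on chromosome 19 to 77 on chromosome 2. Per Mb of 1 kb bins with a read, density was highest on chromosome 12, with 63 regions and 0.590 per Mb, and lowest on chromosome 4, with 36 and 0.259 per Mb. The median chromosome had 0.417 per Mb and all autosomes together 0.409. Chromosome 12 held 6.92% of the regions but 4.57% of the reads of both libraries, 1.51 times its share. It was not rich in regions tall with 1 antibody, with 0.253 per Mb for STAT3 alone and 1.52 for STAT5 alone, against chromosome medians of 0.302 and 1.58. Chromosome 4 held 3.95% of the regions and 6.00% of the reads. Chromosome 12 was singled out as the highest of 19, and its density has no test.

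Single megabases held many of them. The megabase from 62 to 63 Mb on chromosome 15 had 11 regions, and those from 37 to 38 Mb on chromosome 3 and from 117 to 118 Mb on chromosome 8 had 8 each. Those from 134 to 135 Mb on chromosome 6, from 117 to 118 Mb on chromosome 11 and from 108 to 109 Mb on chromosome 12 had 7 each. In all, the 911 regions fell in 522 megabases, and 25 of these held 5 or more regions each, 155 in total.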

How the data were processed

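Each deposited file lists aligned 25 nt reads, 1 per line, with chromosome, start, end, match descriptor and strand. Per the submitters' processing notes, coordinates are on mm9. Sources used here do not name the aligner or the step that left 1 read per position and strand. Regions and lists were chosen with earlier results of these data known.

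Read 5′ ends were moved 50 bp in 3′ direction and counted in tiles of 400 bp starting at multiples of 400. Of adjacent tiles with 250 or more reads of each library, the larger sum was kept, taken from the largest down. A region's centre was the median fragment centre of both libraries in the tile and 200 bp to either side. The summit density was a 51 bp running mean. Ratios of RPM used nuclear reads and an exact conditional (Clopper-Pearson) 95% interval, shares exact binomial intervals and medians order-statistic intervals over regions. Regions tall with 1 antibody alone were not adjacent to a member. With 1 library per antibody, no p-value was computed.

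Named regions were the 10 largest sums, 5 ratios on each side, 3 of the closest pairs (the first by chromosome and position) and the largest group. Others were 3 regions by width and by offset, and 3 regions on either side of the threshold. Ties at the threshold went to the smallest sum inside and to the largest sum outside. On simulated single sites set far apart, the number of sites found, the offset and the STAT3 strand distance were checked against known values. Widths, flanks and spacing were not checked in this way. Scripts ran in Python 3.11.15 (scipy 1.17.1, numpy 2.4.6, pandas 2.3.3), and figures were drawn with matplotlib 3.10.9. The planned motif and gene results needed mm9 sequence and annotation and were not run.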

Additional observations from a re-analysis of the deposited data

Results flagged for a closer look

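Chromosome X lay outside the rule, which covers chromosomes 1 to 19. By the same counts it held 8 regions with 250 or more reads of each antibody, and they are given here only because no comparison of the report uses that chromosome. Their density was 0.0604 per Mb of 1 kb bins with a read, below the 0.409 per Mb of the autosomes together and below the lowest autosome at 0.259. Regions tall with 1 antibody alone were sparse there too, at 5 for STAT3 and 59 for STAT5 on 132 Mb of such bins. The lowest autosomal densities of these sets were 0.213 and 1.23 per Mb. The STAT3 counts of the 8 regions were 315 to 511 and their STAT5 counts 251 to 574. The tallest with STAT3, from 20394000 to 20394399, had counts of 511 and 563, and the one from 110292000 to 110292399 had 473 and 574. No control library was analysed here, and no explanation was tested.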

How the results depend on the processing

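Of the planned recalculations 22 kept their value, to within 1.5 times for a count and otherwise within its interval, and 36 moved. Of those added after the data were seen (without the regions rich in mismatches, and strand distance by the best shift), 10 kept it and 2 moved. With at least 200 reads of each antibody there were 1648 regions, 143 higher with STAT5 and 2 with STAT3, with median widths of 190 bp (STAT3) and 231 bp (STAT5), a STAT5 strand distance of 99 bp and 49.1% with another within 50 kb. With 300 there were 524 regions, 13 higher with STAT5, widths of 229 and 274.5 bp and a share of 32.4%. With STAT3 thinned to the STAT5 depth 668 regions met the rule and 15 were higher with STAT5. Scaling by 10 kb bins without a region of 50 or more reads of either antibody gave 190 higher with STAT5. A limit of 1.5-fold gave 206 and 2 with STAT3, and the correction for taken positions gave 166 and 2. Widths were 317 and 367 bp at 25% of the maximum, 180 and 236 bp with a 25 bp running mean, and 176 and 190.5 bp as the span of the central 50% of fragments; STAT5 was the wider in each. Strand distances were 103 and 105 bp within 500 bp, 87.2 and 87.8 bp by means, and 105 and 109 bp by the best shift. The offset between summit maxima was 25 bp. Flank reads were 20 (STAT3) and 22.5 (STAT5) at 1000 bp, and 39 and 46 in the fuller window. The share with another region was 29.3% within 20 kb, 48.3% within 100 kb, and 46.1% with all qualifying tiles kept. Without the 8 regions rich in mismatches, 903 were left, 42 higher with STAT5, with widths of 207 and 256 bp, strand distances of 98 and 97.5 bp and a share of 39.8%. Beyond what each rule fixes, the cause was not tested. With STAT3 thinned and the limit on reads unchanged, fewer regions met the rule and fewer were called higher with STAT5. In the main set, the 42 regions so called had a median of 283 STAT3 reads, against 336 in the others. How far the fall in calls came from regions lost at that limit was not tested. The ceiling of 800 bounds every count.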
